A study of Mus musculus with 21 samples.

Results

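The genes described here were 41 genes of DNA replication, chosen by their known roles from origin recognition to the supply of deoxynucleotides and found in the deposited tables by gene symbol. They were 41 of the 27968 genes listed for the sorted cells and 41 of the 22899 genes listed for the cocultures. The study derived hematopoietic cells from mouse PSCs (pluripotent stem cells) in a 3D self-assembling peptide, moved the colonies onto OP9 stromal cells or onto 0.1% gelatin, and compared the products with mouse hematopoietic stem and progenitor cells by RNA-seq. There were 21 libraries in 7 groups of 3. The study calls the sorted-cell libraries biological replicates and speaks of independent experiments, while the labels do not name the cultures or animals behind each library, so the p-values measure the spread between these libraries. Levels are the deposited FPKM, a measure that corrects fragment numbers for the length of the transcript and the depth of the library.

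The sorted-cell table held 5 groups. Mouse PSCs (129/ola) were embryonic stem cells kept on inactivated mouse embryonic fibroblasts and sorted with an antibody to SSEA-1. The strain is that of the labels, whereas the methods of the study name embryonic stem cells of both 129/ola and C57BL/6 origin without saying which were sequenced. D5-LSKCD201+ and D5-LSKCD201- cells were of the same strain background and were sorted on day 5 of the OP9 coculture, LSK standing for lineage-negative, Sca-1+ and c-kit+, and CD201 being the endothelial protein C receptor encoded by Procr. BM-LSKCD201+ cells came from the bone marrow of C57BL/6 mice aged 6 to 8 weeks, and FL-LSKCD201+ cells from C57BL/6 fetal liver at E12.5. Strain and source therefore cannot be told apart in any comparison of cultured with fetal liver or bone marrow cells. The coculture table held total cells of day 5 of the 3D+OP9 and the 3D+0.1% gelatin cultures, both 129/ola and both grown with stem cell factor, IL-3 and Flt3 ligand, and the OP9 layer had been treated with mitomycin C, which blocks DNA synthesis. The tables were normalized separately, so no test and no comparison of levels was made between them.

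DNA is copied once in each cell cycle. The origin recognition complex marks the start sites, Cdc6 and Cdt1 load the Mcm2 to Mcm7 helicase there during G1, and geminin (Gmnn) holds Cdt1 in check afterwards. At the onset of S phase Cdc45 and the GINS complex join the helicase, polymerase alpha with primase lays down primers, polymerases delta and epsilon extend them on the sliding clamp Pcna that the Rfc complex loads, and Fen1 and Lig1 join the Okazaki fragments, while ribonucleotide reductase (Rrm1 and Rrm2), Tyms and Tk1 provide deoxynucleotides. Most of these genes are transcribed around the passage from G1 to S under the control of E2F factors. Adult long-term hematopoietic stem cells are known to divide rarely, those of the fetal liver and pluripotent cells often. In bulk RNA samples such as these, fewer cells in S phase and less RNA of these genes in each cell cannot be told apart. By flow cytometry, the study reported a larger share of resting cells in its cultured LSKCD201+ than LSKCD201- cells. The shares in the cycling phases were smaller. The part of this in the levels below was not tested.

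The labels were checked against markers. Procr was at 57.9 to 61.9 FPKM in D5-LSKCD201+, at 66.6 to 69.4 in FL-LSKCD201+ and at 117 to 123 in BM-LSKCD201+, against 3.02 to 3.82 in D5-LSKCD201- and 2.23 to 2.67 in mouse PSCs. Procr, Kit (c-kit) and Ly6a (Sca-1), the 3 sort markers, summed to 162 to 171 FPKM in D5-LSKCD201+ and 146 to 180 in FL-LSKCD201+. Their sum was 425 to 460 in BM-LSKCD201+, 58.5 to 69.1 in D5-LSKCD201- and 9.92 to 11.4 in mouse PSCs. The pan-leukocyte gene Ptprc lay between 0.305 and 0.935 in the day 5 libraries, against 38.4 to 52.1 in FL-LSKCD201+ and 64.3 to 71.6 in BM-LSKCD201+. The summed level of 6 pluripotency markers was 5696 to 6216 for mouse PSCs and 20.7 to 28.1 for D5-LSKCD201+, with D5-LSKCD201- cells at 3198 to 3662, that of 6 endothelial markers was 1038 to 1067 in D5-LSKCD201+ and at most 166 in each of the other sorted libraries, and that of 8 erythroid markers was 385 to 534 in FL-LSKCD201+ and at most 121 in the others. In 4 groups one library stood apart from a close pair over all genes, namely 3D+OP9 replicate 3, D5-LSKCD201- replicate 2, FL-LSKCD201+ replicate 1 and BM-LSKCD201+ replicate 1. Sequencing depth was not given with the FPKM values and is unknown.

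The promoters of these genes are shown first, and no relation between promoter sequence and the change of a member was tested. Windows of 300 bases, 250 before and 50 after the transcription start, were held by RefSeq (GRCm38.p6) for 33 of the 41 members, in 41 windows. An E2F motif, taken as TTTCCCGC, TTTCGCGC, TTTGCCGC or TTTGGCGC on either strand, with overlapping matches counted separately, was found in 14 of the 33 members, or 34.1% of the 41 windows, against 2.26% of all 32851 windows of that length. The CCAAT box, also on either strand, was in 53.7% of the member windows and in 37.4% of all windows. In 9 members an E2F motif lay wholly before the RefSeq start (Orc1, Orc3, Cdc6, Mcm5, Mcm6, Mcm7, Gins3, Pola1 and Rfc3), and in the other 5 (Cdt1, Mcm3, Pold1, Pole2 and Lig1) it lay past it. The gene positions given below are from another annotation, GENCODE M21, and run from the outermost start of any transcript. Against that start the motif of Mcm5, Mcm6, Orc3 and Pola1 still lay before it, and that of the other 5 of the 9 (Cdc6, Gins3, Mcm7, Orc1 and Rfc3) lay past it. Of the 5 members described in every comparison (Mcm2, Cdc6, Cdt1, Pcna and Rrm2), Cdc6 held one before its RefSeq start and Cdt1 one after it. The 170 bases before the RefSeq start are given for Cdc6 and, chosen after the motif positions were seen, for Orc1, Mcm5 and Mcm6, which held it singly or in overlapping pairs. The motif is in capitals.
Cdc6, chr11:98907981-98908150, plus strand: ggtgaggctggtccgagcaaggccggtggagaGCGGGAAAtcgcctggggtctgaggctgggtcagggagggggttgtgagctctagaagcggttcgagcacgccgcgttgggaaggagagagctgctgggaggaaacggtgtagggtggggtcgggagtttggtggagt
Orc1, chr4:108579284-108579453, plus strand: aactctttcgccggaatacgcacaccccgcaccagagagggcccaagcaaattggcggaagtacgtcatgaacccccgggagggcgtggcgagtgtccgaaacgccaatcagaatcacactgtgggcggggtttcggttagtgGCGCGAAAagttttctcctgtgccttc
Mcm5, chr8:75109339-75109508, plus strand: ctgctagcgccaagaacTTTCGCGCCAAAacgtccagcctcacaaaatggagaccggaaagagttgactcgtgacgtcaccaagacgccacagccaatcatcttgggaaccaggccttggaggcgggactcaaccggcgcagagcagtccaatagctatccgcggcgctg
Mcm6, chr1:128359706-128359875, minus strand: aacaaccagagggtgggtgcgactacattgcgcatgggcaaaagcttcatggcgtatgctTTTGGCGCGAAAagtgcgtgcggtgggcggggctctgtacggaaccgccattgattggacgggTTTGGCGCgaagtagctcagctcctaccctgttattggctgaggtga
In Cdc6 the match began 138 bases before the RefSeq start, which lies 350 bases inside the GENCODE gene, and in Orc1 27 bases before a RefSeq start 31 bases inside it. In Mcm5 and in the upstream match of Mcm6, matches on opposite strands overlapped into a palindrome-like run, and Mcm6 held a further match 47 bases before its RefSeq start. These matches are letters in a reference sequence and were not tested for binding.

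Summed over the 41 members, the level was 4681, 4672 and 4708 FPKM in the mouse PSC libraries, 3663, 3962 and 3684 in the D5-LSKCD201- ones, 3303, 3137 and 3130 in fetal liver, 2268, 2333 and 2314 for D5-LSKCD201+ and 1626, 1752 and 1732 for bone marrow. No group overlapped the next in that order. The same order of group means held in 18 members singly. Mouse PSCs had the highest mean in 32 members and BM-LSKCD201+ the lowest in 32, and in the other 9 the lowest mean was in D5-LSKCD201+ (Mcm6, Mcm7, Pcna, Pold1, Pold2, Pole, Rfc1, Rfc2 and Rfc5). The 3 members with the highest mean in FL-LSKCD201+ were Pcna, Fen1 and Tk1, those in D5-LSKCD201- were Gins1, Gmnn and Pold1, and Tyms alone was highest in D5-LSKCD201+. How often all genes fell into these orders is not given here. The median of the members' mean levels was 82.8 FPKM for mouse PSCs, 78.9 for D5-LSKCD201-, 69.5 for fetal liver, 43.5 for D5-LSKCD201+ and 28.0 for bone marrow.

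**Figure D1:**
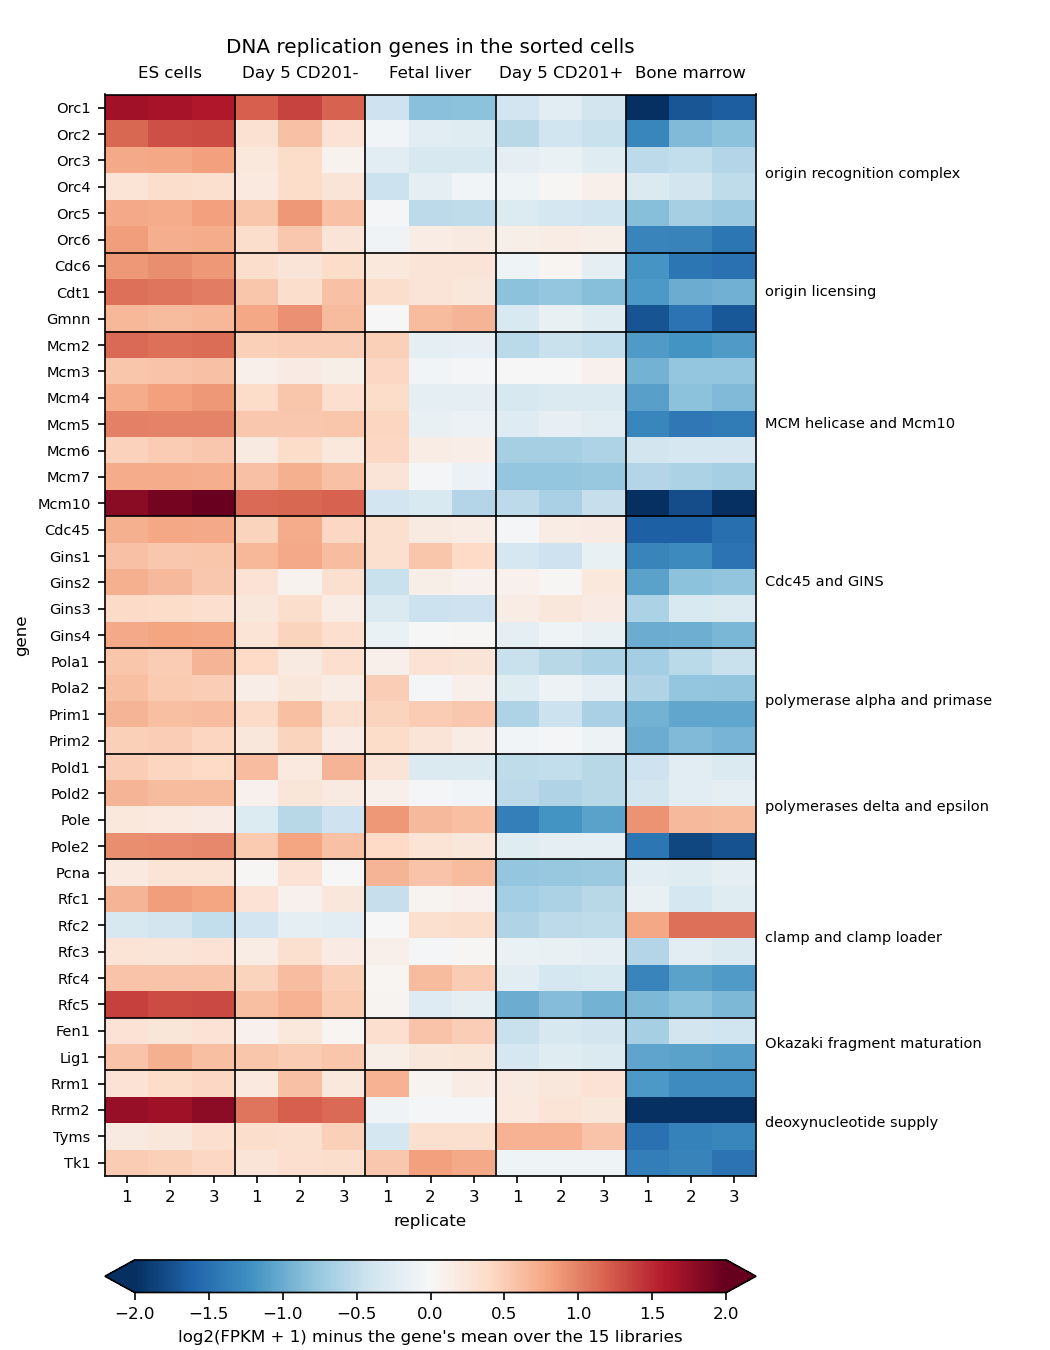
Level of each DNA replication gene (rows, grouped by role) in each of the 15 sorted-cell libraries (columns, 3 replicates a group), as log2(FPKM + 1) minus the gene's mean over the libraries. Mouse PSCs (ES cells) are above the mean in nearly every row and bone marrow below it, with Pole standing out as high in fetal liver and bone marrow and Rfc2 in bone marrow, and colours are capped at a difference of 2.

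The spread between groups differed by gene. Rrm2, the regulated subunit of ribonucleotide reductase, had the widest, with a mean 29.9 times as high in the highest group as in the lowest. Mcm10 followed with 17.9 times, Orc1 with 13.7 and Pole2 with 7.18. Rfc3 had the narrowest spread with 1.56 times, and Orc4 (1.66), Gins3 (1.77), Fen1 (1.94) and Pold1 (2.07) came next. By role, the deoxynucleotide genes spanned the widest range of summed levels as a ratio, from 87.4 to 88.4 FPKM in BM-LSKCD201+ to 641 to 674 in mouse PSCs, and the genes for the clamp and its loader the narrowest as a ratio, from 365 to 368 in D5-LSKCD201+ to 735 to 742 in mouse PSCs.

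**Figure D2:**
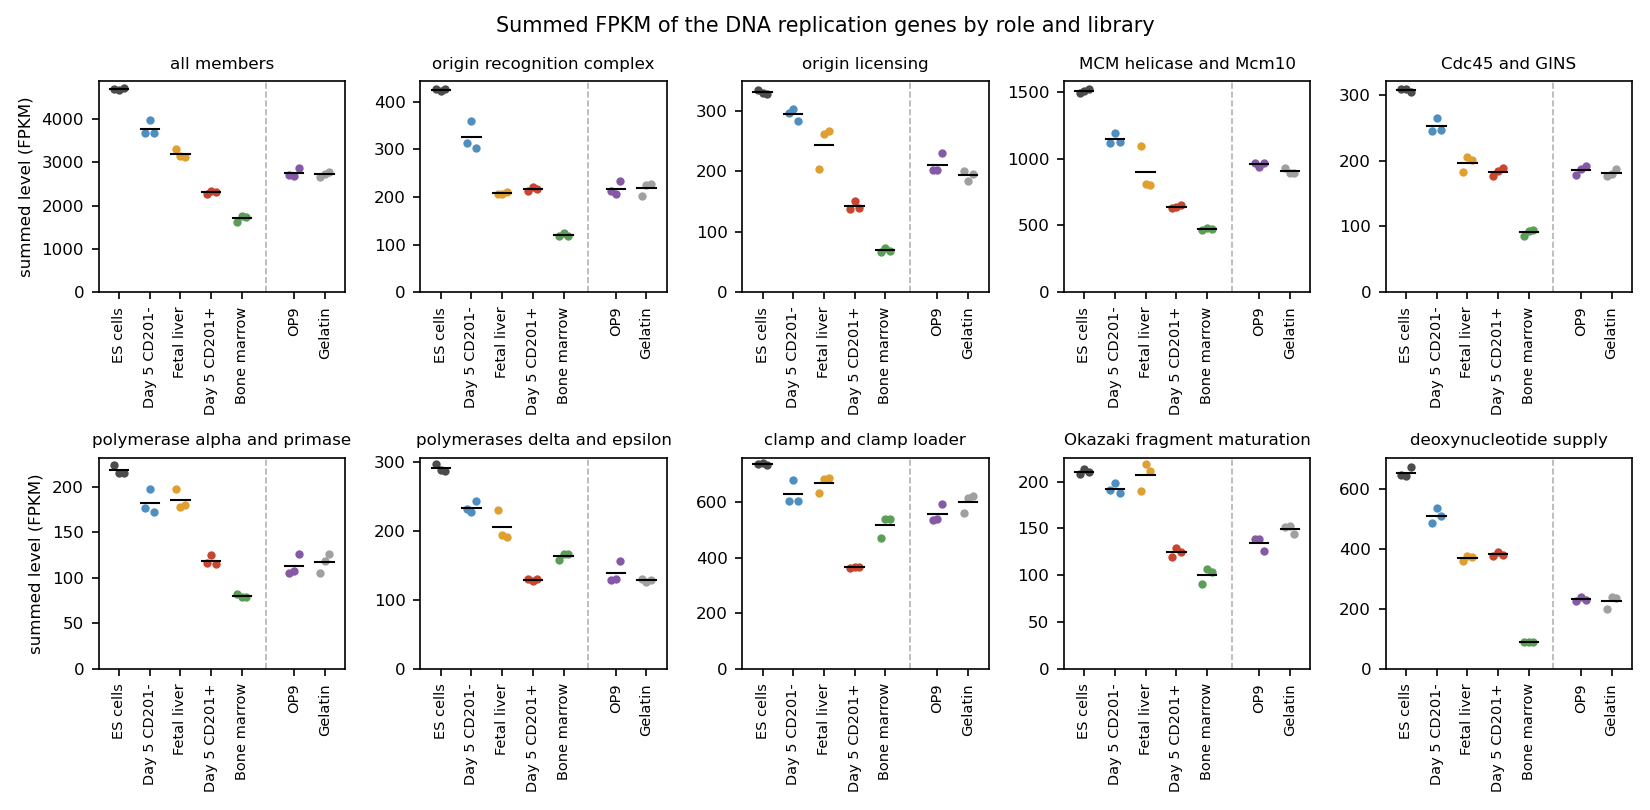
Summed FPKM of the DNA replication genes in each library (points, 3 a group, with the group mean as a bar), for all 41 members and for each of 9 roles; the dashed line separates the sorted-cell table from the coculture table, which were normalized separately. D5-LSKCD201+ lies below D5-LSKCD201- in every role, and the OP9 and gelatin libraries lie close together.

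A gene was called where limma gave an adjusted p under 0.05 and a log2 fold change of FPKM + 1, below also the log2 difference, of at least 1 in size. In D5-LSKCD201+ against D5-LSKCD201- cells, which shared strain, culture and day, 9 of the 41 members (22.0%) were called lower and 0 higher, against 13.9% and 10.8% of the 13691 genes tested. By adjusted p alone, 36 members (87.8%) were lower and 1 was higher, against 39.6% and 28.7% of all genes, and the counts at an unadjusted p under 0.05 were the same 36 and 1. The members had a median log2 difference of -0.80, that of all genes tested -0.12. With every library scaled to the same summed FPKM, called rescaling below, the count called lower was 5 in place of 9, and 34 were lower by adjusted p alone. Of all genes, 2244 of 15045 were called lower after rescaling, a larger share than 5 of 41. The 4 calls lost were those of Orc5, Gmnn, Prim1 and Pold1, whose log2 differences, given here after their values were seen, stood at the fold threshold (-1.02 for Pold1, the others closer to it). Without D5-LSKCD201+ replicate 3 or without D5-LSKCD201- replicate 2 the count was 6 of 41. Of all genes tested, 1905 of 13795 and 2013 of 13626 were then called lower, near the share of the members. In the same comparison 6 of 6 pluripotency markers were called lower and 6 of 6 endothelial markers higher, at the summed levels given above, as were 3 of 9 stromal markers tested (1 was called lower, 105 to 107 against 37.0 to 71.3 FPKM in sum) and 2 of 5 blood cell markers, while 1 of 7 erythroid markers tested was called higher and 3 lower, and their part was not tested.

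Among the origin recognition genes, all 6 were lower by adjusted p and Orc1 and, at the threshold, Orc5 were called. Orc4 and Orc6 did not pass after rescaling (adjusted p 0.074 and 0.078). Orc4 also did not pass without D5-LSKCD201+ replicate 1 or 2, and Orc6 without replicate 1 or 3 of that group. Orc1 (chr4:108579423-108614833), the large subunit whose amount varies through the cell cycle, was at 13.0, 14.6 and 13.2 FPKM in D5-LSKCD201+ against 40.9, 45.8 and 40.3 in D5-LSKCD201-. The groups lay far apart, with a log2 difference of -1.57 (SE 0.08, adjusted p 2.8e-06). Orc2 to Orc6 kept between 0.49 and 0.83 of their D5-LSKCD201- mean, Orc4 and Orc6 the most.

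All 3 licensing genes were lower by adjusted p. Cdt1 (chr8:122568015-122573554) was at 33.1, 34.5 and 32.6 FPKM in D5-LSKCD201+ against 87.8, 75.7 and 89.5 in D5-LSKCD201-, a log2 difference of -1.31 (SE 0.08, adjusted p 5.8e-06). Cdc6 (chr11:98907801-98923940), its partner in loading, was at 15.9, 17.5 and 14.7 against 21.9, 20.5 and 22.2. The values did not overlap, but the difference was under 2-fold, with a log2 difference of -0.40 (SE 0.08, adjusted p 0.0036). Gmnn was called lower at the threshold but not after rescaling, at 88.8 to 98.7 against 171 to 207 FPKM.

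Of the helicase genes and Mcm10, 6 of 7 were lower by adjusted p, and Mcm3 (156 ± 5.6 against 168 ± 4.3 FPKM, mean ± SD, n = 3) did not pass. Mcm10 (chr2:4989714-5012791), which helps the helicase start, had the largest difference of the 41, at 19.4, 17.6 and 20.3 FPKM against 63.2, 63.9 and 65.4. The log2 difference was -1.70 (SE 0.07, adjusted p 9.6e-07). Mcm7 (chr5:138164583-138172422) was at 86.2, 86.6 and 87.2 against 222, 244 and 222, a log2 difference of -1.39 (SE 0.05, adjusted p 8.9e-07). Mcm2 (chr6:88883474-88898780) was at 82.8, 88.2 and 85.3 against 167, 169 and 169, a log2 difference of -0.97 (SE 0.05, adjusted p 2.5e-06), just short of the fold threshold. So the 6 subunits of one ring did not move in proportion, Mcm3 keeping 0.93 of its D5-LSKCD201- mean and Mcm7 0.38.

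Of Cdc45 and the GINS genes, which complete the active helicase, 3 of 5 were lower by adjusted p and 0 were called. Gins1 showed the largest difference (21.8 ± 2.1 against 44.0 ± 2.2 FPKM), while Gins2 (40.5 ± 2.8 against 44.3 ± 4.2) and Gins3 (15.8 ± 0.49 against 16.6 ± 1.3) overlapped between the groups. Of the 8 polymerase and primase genes all were lower by adjusted p, with Prim1, the catalytic primase subunit, and Pold1, the catalytic subunit of polymerase delta, called at the threshold and neither called after rescaling. All 6 genes for the clamp and its loader were lower by adjusted p. Rfc5 (chr5:117378103-117389047) was the one called, at 36.9, 40.3 and 38.0 against 114, 122 and 107 FPKM, a log2 difference of -1.55 (SE 0.07, adjusted p 1.5e-06). Pcna (chr2:132249162-132253314) was at 90.6, 91.3 and 92.2 against 159, 191 and 156, a log2 difference of -0.87 (SE 0.08, adjusted p 7.1e-05). Fen1 and Lig1 kept 0.71 and 0.56 of their D5-LSKCD201- means.

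The deoxynucleotide genes were the most mixed. Rrm2 (chr12:24708241-24714146) was at 139, 147 and 142 FPKM in D5-LSKCD201+ against 255, 280.1 and 266 in D5-LSKCD201-, a log2 difference of -0.90 (SE 0.05, adjusted p 7.4e-06). Its partner Rrm1 overlapped between the groups, at 77.2 ± 3.1 against 83.1 ± 13 FPKM. Tyms (chr5:30058202-30073617), thymidylate synthase, was the only member higher by adjusted p, and it is named after its values were seen. It was at 109, 109.8 and 100.2 against 86.1, 83.8 and 93.9, a log2 difference of 0.27 (SE 0.07, adjusted p 0.0081), below the fold threshold, and it did not pass in 1 fit over all 5 sorted-cell groups (adjusted p 0.10).

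Against mouse PSCs, both day 5 populations were lower, D5-LSKCD201+ by more. These 2 comparisons share the mouse PSC libraries, and the first shares the D5-LSKCD201+ libraries with the comparison above. In D5-LSKCD201+ cells, 19 of 41 members (46.3%) were called lower and 0 higher, against 18.1% and 19.5% of the 13441 genes tested. Without the fold threshold 40 (97.6%) were lower and 1, again Tyms, was higher, against 45.2% and 40.3% of all genes, and the counts at an unadjusted p under 0.05 were also 40 and 1. The median log2 fold change was -0.97, against -0.07 over all genes. The helicase group held 6 of the called genes, all of Mcm2 to Mcm7 and Mcm10 except Mcm3. The pluripotency markers (6 of 6 called lower) and the endothelial ones (6 of 6 called higher) moved in the same comparison, as did the stromal ones (7 of 8 tested called higher, 105 to 107 against 7.92 to 9.61 FPKM in sum) and 3 of 4 erythroid and 1 of 4 blood cell markers tested, all called higher, and their part was not tested.

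Mcm10 had the largest difference here too, at 101, 110 and 114 FPKM in mouse PSCs, a log2 difference of -2.45 (SE 0.06, adjusted p 1.3e-09). Rfc5, at 194, 186 and 187 in mouse PSCs, had -2.27 (SE 0.04, adjusted p 1.7e-10). Orc1, at 57.5, 56.5 and 54.5, had -1.97 (SE 0.05, adjusted p 1.6e-09), and Cdt1, at 128, 126 and 122, had -1.88 (SE 0.04, adjusted p 3.4e-10). As ratios of mean FPKM, D5-LSKCD201+ held 0.18 of the mouse PSC level for Mcm10, 0.20 for Rfc5, 0.24 for Orc1 and 0.27 for Cdt1. Mcm2, at 264, 258 and 261 in mouse PSCs, had -1.60 (SE 0.03, adjusted p 4e-10), and Rrm2, at 406, 397 and 423, had -1.51 (SE 0.04, adjusted p 8.2e-10). Pcna, at 179, 188 and 189, had -1.01 (SE 0.03, adjusted p 6.7e-09) and Cdc6, at 31.7, 33.5 and 32.0, had -0.97 (SE 0.06, adjusted p 6.5e-07). Both stood at the fold threshold. Pcna was not called after rescaling (-0.98) or without mouse PSC replicate 3 (-0.998), and Cdc6 was called with a pseudocount of 0.1 FPKM (-1.01), with quantile normalization (-1.04) or without D5-LSKCD201+ replicate 2 (-1.03).

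D5-LSKCD201- cells were nearer to mouse PSCs. By limma 0 members were called in either direction, against 10.9% of 13596 genes called higher and 3.48% called lower. On adjusted p alone, 23 (56.1%) were lower and 0 higher, against 22.4% and 32.2% of all genes, and at an unadjusted p under 0.05 the counts were 25 and 0. Without D5-LSKCD201- replicate 2, the library that stood apart, 34 were lower and 2 higher by adjusted p alone. The median log2 fold change was -0.27, against 0.05 over all genes. Mcm2 was at 167 to 169 FPKM against 258 to 264, a log2 difference of -0.63 (SE 0.04, adjusted p 2.7e-05). Rrm2 had -0.61 (SE 0.06, adjusted p 9.9e-05), Cdt1 -0.57 (SE 0.07, adjusted p 0.00054) and Cdc6 -0.57 (SE 0.06, adjusted p 0.00027), each without overlap between the groups. Pcna overlapped, at 159, 191 and 156 against 179, 188 and 189, with -0.14 (SE 0.08, adjusted p 0.19). Markers called higher in D5-LSKCD201- here were 5 of 6 endothelial, 7 of 8 stromal, 3 of 5 erythroid and 1 of 4 blood cell ones tested, and 2 of 6 pluripotency markers were called lower, with summed levels of 54.5 to 58.3 against 18.3 to 19.2 FPKM for endothelium, 37.0 to 71.3 against 7.92 to 9.61 for stroma and 50.9 to 121 against 4.42 to 6.79 for erythroid cells. Their part was not tested.

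**Figure D3:**
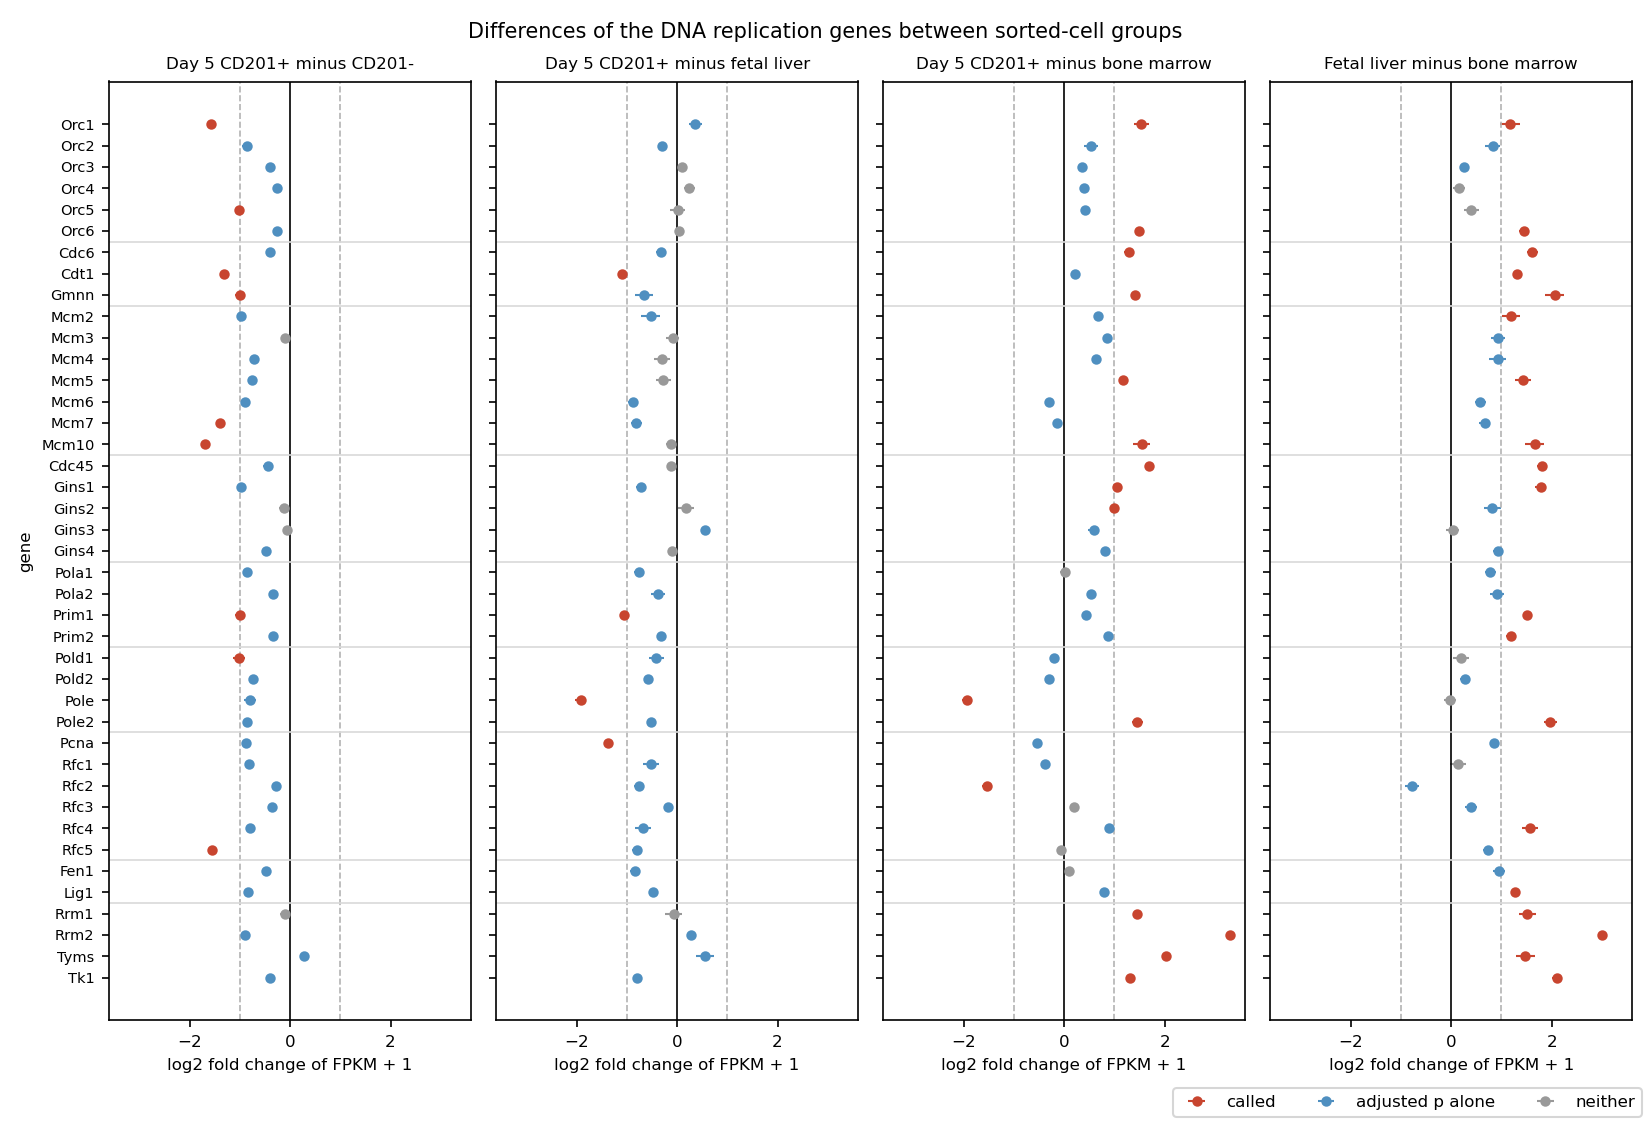
Log2 fold change of FPKM + 1 with its standard error for each DNA replication gene in 4 of the sorted-cell comparisons, coloured by whether it passed both thresholds (called), the adjusted p alone or neither; dashed lines mark the fold threshold of 1. Nearly all genes lie left of 0 in D5-LSKCD201+ against D5-LSKCD201- and right of 0 in fetal liver against bone marrow.

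Against freshly isolated cells sorted by the same surface markers, the summed level placed D5-LSKCD201+ between fetal liver and bone marrow. The group means of 24 members singly did the same, while 8 were above both and 9 below both. The share of all genes in each of these places is not given here. Against FL-LSKCD201+, 4 of 41 members (9.76%) were called lower and 0 higher, against 19.6% and 15.1% of the 13627 genes tested. By adjusted p alone 25 (61.0%) were lower and 4 (9.76%) higher, against 42.0% and 30.1% of all genes, and the counts at an unadjusted p under 0.05 were also 25 and 4. The 4 were 2 without any 1 of the D5-LSKCD201+ libraries or with no filter on low values, and 7 without FL-LSKCD201+ replicate 1. The median log2 fold change was -0.37, against -0.16 over all genes. The gap between these medians, -0.21, was -0.10 without FL-LSKCD201+ replicate 1 and -0.32 without replicate 2 of that group. After rescaling, 2 members were called lower (Pole and Pcna), against 2821 of all 14816 genes. By adjusted p alone 17 were then lower and 7 higher, and the median was -0.20. In the same comparison 5 of 5 blood cell markers and 6 of 8 erythroid markers were called lower and 6 of 6 endothelial, 6 of 8 stromal and 3 of 3 pluripotency markers tested higher, with summed levels of 105 to 107 against 12.3 to 14.96 FPKM for stroma and, for blood, 43.8 to 47.5 FPKM in D5-LSKCD201+ against 1235 to 1454, and their part was not tested.

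The called members were Pole, Pcna, Cdt1 and Prim1. Pole (chr5:110286306-110337474), the catalytic subunit of polymerase epsilon, was at 5.76, 6.66 and 7.30 FPKM in D5-LSKCD201+ and 30.9, 26.5 and 25.4 in FL-LSKCD201+, a log2 difference of -1.92 (SE 0.11, adjusted p 6.9e-06). Pcna was at 90.6 to 92.2 against 249.0, 230.5 and 241, a log2 difference of -1.38 (SE 0.07, adjusted p 2.7e-06). A pseudogene of Pcna listed in the same table, Pcna-ps2, was at 25.9 to 27.6 FPKM in D5-LSKCD201+ and 4.91 to 5.23 in FL-LSKCD201+, at 2.46 to 4.13 in BM-LSKCD201+ and at 47.5 to 59.3 in the mouse PSC and D5-LSKCD201- libraries, so it was higher in all sorted libraries labelled 129/ola than in those labelled C57BL/6. Reads may be split between near-identical copies, so the Pcna values are uncertain, and the part of this in the difference was not tested. Cdt1 was at 76.0, 71.6 and 70.1 in FL-LSKCD201+, a log2 difference of -1.10 (SE 0.07, adjusted p 8.5e-06). Prim1 (chr10:128015168-128030037) was at 32.9, 37.3 and 32.1 against 69.4, 72.7 and 74.1, a log2 difference of -1.06 (SE 0.08, adjusted p 2.5e-05). Cdt1 (-0.93) and Prim1 (-0.90) fell short of the fold threshold after rescaling.

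The 4 members higher than in FL-LSKCD201+ by adjusted p were Rrm2 and, named after their values were seen, Orc1, Gins3 and Tyms. Orc1 and Tyms did not pass in the settings that left 2. Rrm2 was at 139, 147 and 142 against 115, 119 and 118 FPKM, a log2 difference of 0.28 (SE 0.06, adjusted p 0.0065). Mcm2 and Cdc6 were lower but not called, with -0.53 (SE 0.18, adjusted p 0.034) and -0.33 (SE 0.08, adjusted p 0.01). For Mcm2 the FL-LSKCD201+ libraries themselves spread widely, at 168, 105 and 107, and without replicate 1 of that group the value was -0.31. Mcm2 did not pass after rescaling (-0.36, adjusted p 0.23), with quantile normalization (adjusted p 0.087), with no filter (adjusted p 0.059) or without any 1 of the D5-LSKCD201+ libraries (adjusted p 0.076 to 0.0995). In replicate 1 of FL-LSKCD201+ the 6 helicase subunits, Rrm1, Pola2 and Pold1 were above the other fetal liver libraries, and Gmnn, Tyms, Rfc4 and Gins2 below them.

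Against BM-LSKCD201+, D5-LSKCD201+ cells were mostly higher, with 14 members (34.1%) called higher and 2 (4.88%) lower, against 17.5% and 27.2% of the 13775 genes tested. Without the fold threshold, 29 (70.7%) were higher and 8 (19.5%) lower, against 34.2% and 49.2% of all genes. After rescaling these counts were 31 and 3. The median log2 fold change was 0.63, against -0.23 over all genes. All 4 deoxynucleotide genes, 3 of the 5 genes for Cdc45 and GINS and 2 of the 3 licensing genes were among those called higher. Of the 3 for Cdc45 and GINS, Gins1 and Gins2 (named after their values were seen) stood near the fold threshold, and 1 was left without D5-LSKCD201+ replicate 3 (0.98 and 0.95), while Gins2 was lost without BM-LSKCD201+ replicate 1 (0.91) and Gins1 without BM-LSKCD201+ replicate 3. Blood cell markers (5 of 5 called lower, 43.8 to 47.5 against 1549 to 1775 FPKM in sum) and endothelial markers (6 of 6 called higher, 1038 to 1067 against 104 to 113 FPKM) moved, as did stromal ones (7 of 8 tested called higher, 105 to 107 against 6.62 to 7.44 FPKM) and erythroid ones (3 of 6 tested called higher and 1 lower, 31.5 to 51.5 against 4.99 to 13.5 FPKM) and 3 of 3 pluripotency markers tested (called higher), and their part was not tested. The 3 sort markers were all called lower here (162 to 171 against 425 to 460 FPKM in sum), and their part was not tested either. Of these 3, 0 were called in D5-LSKCD201+ against FL-LSKCD201+, and 2 were called lower in FL-LSKCD201+ against BM-LSKCD201+.

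Rrm2 differed most, at 14.1, 13.4 and 13.6 FPKM in BM-LSKCD201+ against 139 to 147 in D5-LSKCD201+, a log2 difference of 3.29 (SE 0.05, adjusted p 2.8e-09). Tyms, at 23.3, 25.8 and 26.6 in BM-LSKCD201+, had 2.03 (SE 0.07, adjusted p 9.3e-08). Cdc45 (chr16:18780447-18811987), at 8.14, 8.09 and 8.99 against 26.9, 30.3 and 30.6, had 1.68 (SE 0.07, adjusted p 4.8e-07), and Mcm10, at 4.20, 7.59 and 6.35, had 1.54 (SE 0.18, adjusted p 0.0001). Cdc6, at 6.94, 5.62 and 5.39, had 1.29 (SE 0.11, adjusted p 1.6e-05). In all 5 every D5-LSKCD201+ library lay above every bone marrow library. Mcm2, at 54.2, 51.9 and 54.2, had 0.67 (SE 0.05, adjusted p 5.7e-06) and Cdt1, at 26.2, 29.5 and 30.1, had 0.22 (SE 0.07, adjusted p 0.016), neither reaching the fold threshold, and Cdt1 did not pass by adjusted p without D5-LSKCD201+ replicate 2. Pcna was lower in D5-LSKCD201+ than in bone marrow, where it was at 133, 131 and 135, with -0.54 (SE 0.04, adjusted p 8.1e-06), under the same limit from its pseudogene. The directions of Mcm7 and Rfc5, both near 0 in this comparison, turned after rescaling, and that of Rfc5 also with quantile normalization. Mcm7, at -0.14, was among the 8 members lower by adjusted p, and after rescaling it was at 0.05 (adjusted p 0.45).

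Pole and Rfc2 were the 2 members called lower than in bone marrow. Pole was at 31.5, 26.3 and 26.1 FPKM in BM-LSKCD201+, a log2 difference of -1.94 (SE 0.11, adjusted p 1.5e-06). Rfc2 (chr5:134581366-134601805), a clamp loader subunit, was at 192, 242 and 242 in BM-LSKCD201+ and 73.4, 78.1 and 78.8 in D5-LSKCD201+, a log2 difference of -1.53 (SE 0.09, adjusted p 2.8e-06). Its annotated exons share 952 of 6303 bases with exons of Lat2, an adaptor gene of blood cells on the other strand, and counting was not stated to use strand. Lat2 was at 53.7 to 65.6 FPKM in BM-LSKCD201+, 3.71 to 4.90 in FL-LSKCD201+ and at most 0.462 in the other sorted libraries, and its part in the Rfc2 values was not tested. Pole and Rfc2 were also the 2 members for which all 6 C57BL/6 libraries lay above all 9 sorted 129/ola libraries. Gins3, Orc1 and Rrm2 were the 3 for which they lay below, and the other 36 overlapped. The share of all genes separated in this way was not computed, so these counts cannot be read as particular to the members.

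Between the C57BL/6 groups, FL-LSKCD201+ was higher than BM-LSKCD201+ in most members. Of the 41, 19 (46.3%) were called higher and 0 lower, against 7.78% and 11.3% of the 13503 genes tested. The adjusted p alone was passed by more, and 34 (82.9%) were higher and 1 was lower (Rfc2, named after its values were seen), against 22.2% and 32.9% of all genes, and the counts at an unadjusted p under 0.05 were 35 and 1. The median log2 fold change was 0.94, against -0.13 over all genes. All 3 licensing genes and all 4 deoxynucleotide genes were called, and 3 of the 7 helicase genes. The helicase count was 5 without FL-LSKCD201+ replicate 2 or 3, where Mcm3 and Mcm4 (named after their values were seen) passed the fold threshold at 1.01 to 1.02, and 2 without FL-LSKCD201+ replicate 1. The erythroid markers, 8 of 8 called higher in FL-LSKCD201+, moved in the same comparison, as did 2 of 6 endothelial markers (called higher) and 1 of 5 blood cell markers (called lower), and of 3 stromal markers tested 1 was called higher and 1 lower (12.3 to 14.96 against 6.62 to 7.44 FPKM in sum), and their part was not tested.

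Rrm2, at 115, 119 and 118 FPKM against 13.4 to 14.1, had the largest difference, with a log2 difference of 3.01 (SE 0.08, adjusted p 6.8e-07). Tk1 (chr11:117815526-117826092), thymidine kinase, was at 85.3, 103 and 99.3 against 21.7, 22.4 and 20.4, a log2 difference of 2.10 (SE 0.10, adjusted p 7e-06). Gmnn (chr13:24751845-24761923) was at 108, 169 and 175 against 32.5, 38.6 and 33.2, a log2 difference of 2.06 (SE 0.19, adjusted p 0.00011). Pole2 (chr12:69201773-69228195), the second subunit of polymerase epsilon, was at 22.4, 20.3 and 19.8 against 5.50, 4.01 and 4.30, a log2 difference of 1.97 (SE 0.13, adjusted p 2.6e-05). None of these 4 overlapped between the groups. Pole itself did overlap, at 27.6 ± 2.9 against 28.0 ± 3.1 FPKM. Cdc6 had 1.62 (SE 0.11, adjusted p 3.5e-05), Cdt1 1.31 (SE 0.09, adjusted p 3.1e-05), Mcm2 1.19 (SE 0.18, adjusted p 0.0012) and Pcna 0.85 (SE 0.08, adjusted p 0.00016). Without FL-LSKCD201+ replicate 1, Mcm2 was at 0.98 and no longer called.

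Because FPKM is scaled by transcript length, pairs of members could be set against each other within a library. The ratio of Rrm2 to Rrm1, the subunits of one enzyme, was 5.04, 4.70 and 4.85 for mouse PSCs, then 3.40, 2.84 and 3.51 for D5-LSKCD201-, 1.87, 1.92 and 1.76 for D5-LSKCD201+, 1.08, 1.75 and 1.63 for fetal liver and 0.485, 0.498 and 0.506 for bone marrow. It fell into the same order as the summed levels except that D5-LSKCD201+ lay above FL-LSKCD201+. The ratio of Orc1 to Orc2 was 1.37 to 1.5 for D5-LSKCD201-, 0.989 to 1.16 for mouse PSCs, 0.833 to 0.895 for D5-LSKCD201+, 0.492 to 0.604 in FL-LSKCD201+ and 0.352 to 0.403 in BM-LSKCD201+, without overlap between neighbours. Annotated exons of Orc2 share 1150 of 3857 bases with exons of Nif3l1 on the other strand. Nif3l1 was at 43.9 to 47.2 FPKM in mouse PSCs and 16.4 to 17.0 in BM-LSKCD201+, and its part in this ratio was not tested. The ratio of Cdt1 to its inhibitor Gmnn was 0.350 to 0.373 in D5-LSKCD201+, the lowest range of the 5 groups, though one D5-LSKCD201- library (0.365) lay within it. It was 0.765 to 0.907 in BM-LSKCD201+ and 0.702 to 0.743 in mouse PSCs.

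The ratio of Pole to Pole2 was 5.73 to 6.56 in BM-LSKCD201+, 1.28 to 1.38 in FL-LSKCD201+ and at most 0.589 in the other sorted libraries. The ratio of Rfc2 to Rfc3 was 4.14 to 4.35 in BM-LSKCD201+, 1.53 to 2.08 in FL-LSKCD201+ and 0.945 to 1.32 in the others. The exon overlap of Rfc2 with Lat2 limits its ratio in bone marrow, and strain and source cannot be told apart in either ratio. Over Mcm2 to Mcm7, which form a ring with one copy of each, the highest subunit was 3.70 to 4.34 times the lowest in BM-LSKCD201+, 2.70 to 3.32 times in FL-LSKCD201+ and 2.26 to 2.89 times in the mouse PSC and day 5 libraries, the last overlapping fetal liver. These ratios are levels of RNA and carry no test.

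**Figure D4:**
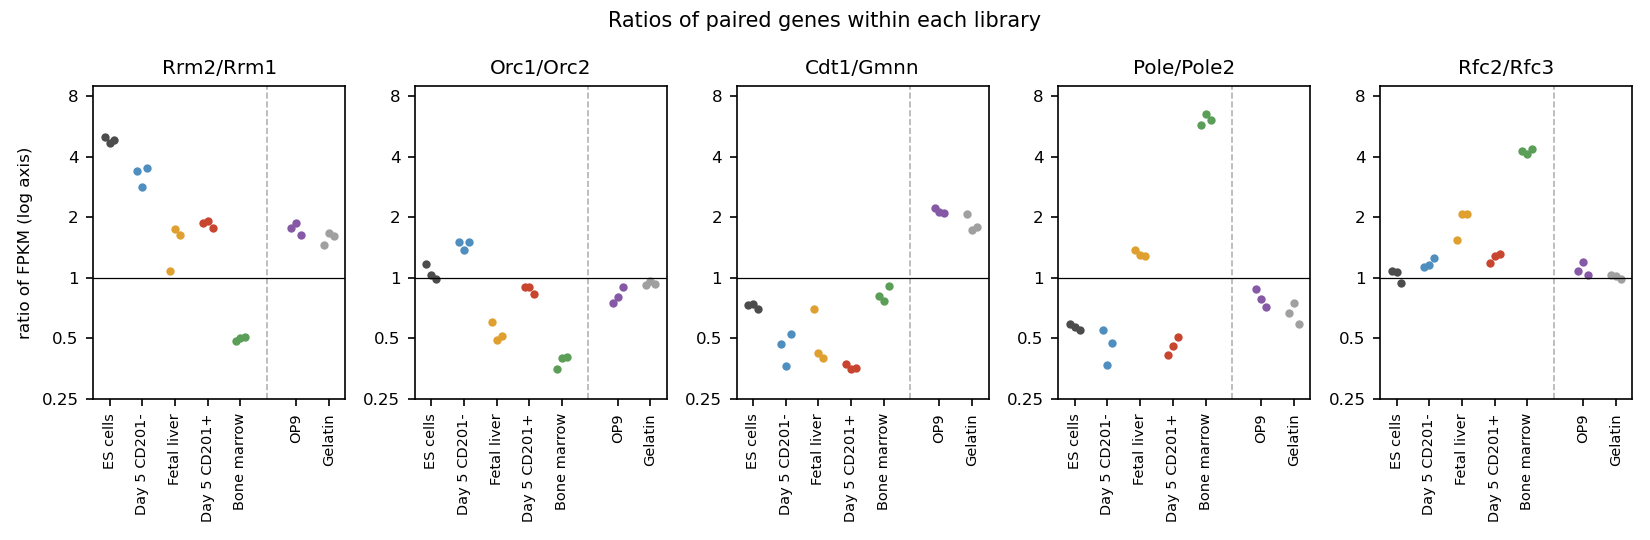
Ratio of the FPKM of 2 members of one complex or pathway within each library (points, 3 a group, log axis), with a line at 1; the dashed line separates the sorted-cell from the coculture table. Bone marrow is lowest for Rrm2/Rrm1 (0.485 to 0.506) and Orc1/Orc2 and highest for Pole/Pole2 (5.73 to 6.56) and Rfc2/Rfc3. Exons that Rfc2 shares with Lat2 and Orc2 with Nif3l1 limit the ratios that hold them.

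In the coculture, the question was whether total cells on OP9 differed from those on gelatin. The summed level of the 41 members was 2696, 2690 and 2856 FPKM on OP9 and 2659, 2732 and 2765 on gelatin, which overlapped. By limma 0 members were called in either direction, against 2.11% of 12958 genes called higher and 0.509% called lower on OP9. By adjusted p alone 1 member was higher and 0 lower, against 4.61% and 2.27% of all genes, and the counts at an unadjusted p under 0.05 were 3 higher and 1 lower. The log2 fold changes ran from -0.21 to 0.30 with a median of 0.04, against 0.01 over all genes. With 1 library left out, the members' median lay between -0.02 (without OP9 replicate 3) and 0.05 (without gelatin replicate 3). The summed erythroid markers were at 192, 378 and 710 FPKM on OP9 and 4.40 to 19.2 on gelatin, and the pluripotency markers at 620, 614 and 1114 on OP9, the last in the library that stood apart, and 910 to 981 on gelatin. Of 6 pluripotency markers 2 were called higher and 0 lower. Endothelial markers (6 of 6 called higher, 75.6 to 90.1 against 9.45 to 20.2 FPKM in sum), stromal markers (4 of 9 tested called higher, 68.5 to 79.0 against 31.9 to 43.5 FPKM) and blood cell markers (2 of 3 tested called higher, 9.42 to 14.4 against 4.83 to 5.2 FPKM) also differed. Of the 3 sort markers 2 were called higher on OP9 (18.3 to 25.3 against 7 to 9.92 FPKM in sum). The part of any of these markers in the values of the members was not tested.

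The 1 member was Mcm6 (chr1:128331590-128359664), named after its values were seen, at 146, 133 and 137 FPKM on OP9 and 118, 109.9 and 109.8 on gelatin. The log2 difference was 0.30 (SE 0.07, adjusted p 0.049), and no member passed by adjusted p with another filter, with a constant prior variance, with the replicate block or without replicate 1 or 2 on OP9 or 2 or 3 on gelatin. Mcm2 was at 116, 112 and 125 against 124, 121 and 115, a log2 difference of -0.03 (SE 0.07, adjusted p 0.87) whose sign turned with quantile normalization and without OP9 replicate 2. Cdc6 was at 28.4, 29.4 and 26.4 against 25.8, 32.1 and 34.2, with -0.12 (SE 0.12, adjusted p 0.6). Cdt1 was at 119, 117 and 138 against 119, 96.3 and 103, with 0.24 (SE 0.10, adjusted p 0.22). Pcna was at 309, 315 and 348 against 338, 396 and 392, with -0.21 (SE 0.09, adjusted p 0.2), and Rrm2 at 114, 121 and 105 against 87.0, 115 and 110.0, with 0.13 (SE 0.12, adjusted p 0.54). All 5 overlapped between the cultures.

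**Figure D5:**
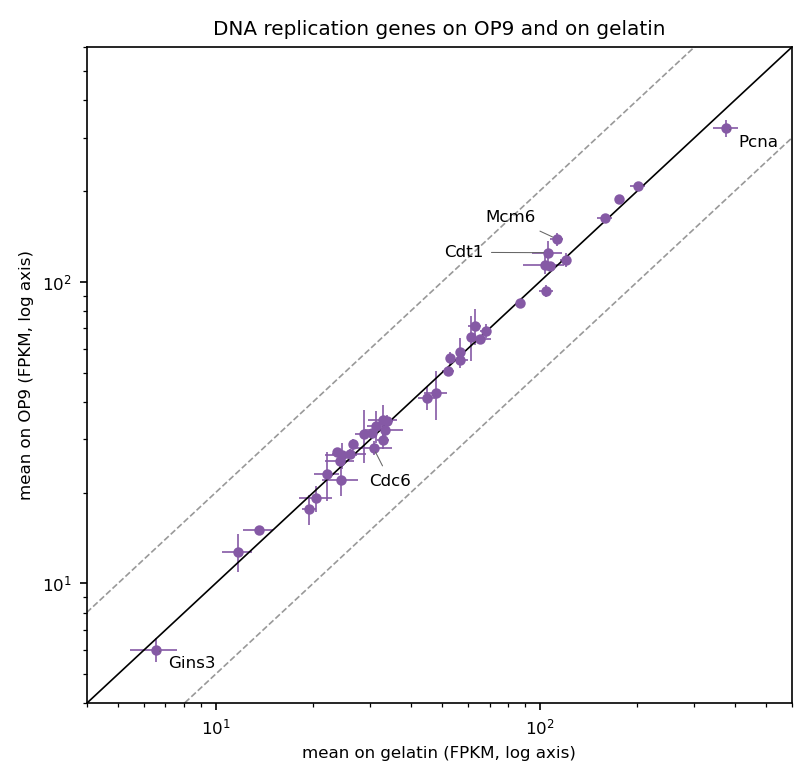
Mean FPKM of each DNA replication gene on OP9 against gelatin (log axes, error bars SD, n = 3), with the line of equality solid and the lines of 2-fold difference dashed. All 41 genes lie between the dashed lines, from Gins3 (6.03 and 6.53 FPKM) to Pcna (324 and 375 FPKM).

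Other genes of replication were read as lists beside the members. Of 28 other genes of the fork and of origin firing, 24 were lower and 1 higher by adjusted p in D5-LSKCD201+ than in D5-LSKCD201-, with a median log2 fold change of -0.61, against 39.6% and 28.7% of all genes. With the fold threshold 5 of the 28 were called lower and 1 higher, against 13.9% and 10.8% of all genes. The largest differences called lower were in Ticrr (2.53 ± 0.52 against 9.77 ± 1.2 FPKM), which helps fire origins, and in Chtf18 (13.6 ± 0.44 against 35.8 ± 4.0), a subunit of an alternative clamp loader. In FL-LSKCD201+ against BM-LSKCD201+, 24 of the 28 were higher by adjusted p and 1 lower, against 22.2% and 32.9% of all genes, with a median of 0.96, and the largest difference was in the nuclease gene Dna2 (18.7 ± 0.43 against 2.86 ± 1.1 FPKM). On OP9 against gelatin 0 of the 28 passed. Of 10 other genes of deoxynucleotide supply, 5 were lower and 3 higher by adjusted p in D5-LSKCD201+ than in D5-LSKCD201-, near the 39.6% and 28.7% of all genes. The 1 called of the 10, no more than the 13.9% of all genes called lower, was Dut, which breaks down dUTP (78.5 ± 0.61 against 176 ± 2.9 FPKM). Against BM-LSKCD201+, 2 of these 10 were higher and 5 lower by adjusted p, against 34.2% and 49.2% of all genes, with a median log2 fold change of -0.18. Of 10 genes of chromatin assembly at the fork, 5 were lower and 0 higher by adjusted p in D5-LSKCD201+ than in D5-LSKCD201-, against 39.6% and 28.7% of all genes, with a median log2 fold change of -0.40. The histone chaperone gene Nasp was the 1 called of the 10 (93.5 ± 2.2 against 234 ± 13 FPKM), no more than the 13.9% of all genes called lower.

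Of 15 genes for E2F and pocket proteins, 8 were lower and 1 higher by adjusted p in D5-LSKCD201+ than in D5-LSKCD201-, with a median log2 fold change of -0.32, against 39.6% and 28.7% of all genes and a median of -0.12. The 2 called, near the 13.9% of all genes called lower, were Tfdp2, a dimer partner of E2F factors (15 ± 3.0 against 39.4 ± 2.8 FPKM), and the repressor E2f8 (1.80 ± 0.10 against 5.01 ± 1.8). In FL-LSKCD201+ against BM-LSKCD201+, 11 were higher and 1 lower by adjusted p, against 22.2% and 32.9% of all genes, with a median of 0.51. The activator E2f2 was at 7.36, 5.85 and 6.31 FPKM in fetal liver and 1.01, 0.425 and 0.568 in bone marrow, while the pocket protein gene Rbl2, whose product holds E2F targets down in resting cells, was at 7.78, 5.60 and 6.18 against 26.0, 23.6 and 23.8 and was the 1 lower. In D5-LSKCD201+, E2f2 was at 1.64, 2.05 and 1.91 and Rbl2 at 1.21, 1.13 and 1.48, the latter below every fetal liver and bone marrow library.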

How the data were processed

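The members and the gene lists were chosen with earlier results of these data known. The RNA libraries (a VAHTS mRNA-seq kit) were read on an Illumina sequencer. The authors aligned reads to GRCm38 with HISAT2 2.0.5, assembled transcripts with StringTie 1.3.3 and deposited FPKM for each gene and library, and their methods name Cuffdiff 1.3.0 for testing. Replicates were not pooled. Depth is unknown, so no interval for a single FPKM value is given.

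From the FPKM, log2(FPKM + 1) was taken, keeping genes whose mean in the compared libraries reached 0.5 FPKM. Each pair of groups was fitted on its own by limma 3.58.1 with a mean-variance trend (R 4.3.3), two-sided, with Benjamini-Hochberg adjustment over all genes tested in each of 7 comparisons. All 41 members were tested in each. The fit was run on simulated data for OP9 against gelatin and D5-LSKCD201+ against D5-LSKCD201- only, with independent noise for each gene. No library stood apart in that simulation, unlike in 4 groups here, so it does not check the p-values under such a spread. An exact two-sided permutation test of 3 against 3 libraries cannot go below 0.1. Fold changes were given in each comparison for up to 4 called members a direction with the largest size and for Mcm2, Cdc6, Cdt1, Pcna and Rrm2, while other members are given by level, and those singled out beyond the rule were chosen after their values were seen. Same-numbered libraries had correlated deviations over 0.1 in each of 3 pairs for FL-LSKCD201+ and BM-LSKCD201+ only (0.24, 0.20 and 0.16 over genes). Yet only 1 of the 3 FL-LSKCD201+ libraries correlated best with its own number, against 2 of 3 for OP9 with gelatin. The labels name no pairs, so a pairing was not established. Gene positions are from GENCODE M21 (GRCm38), which held all 41. In the deposited positions, 14 members ran over 1000 bases past their annotated gene, Cdt1 and Gins2 into one shared region, and 14 share exon bases with a gene on the other strand, Fen1 and Gins2 over most of their exons, which limits how reads could be assigned. The alternatives were a pseudocount of 0.1 FPKM, no filter, a filter at 1 FPKM, quantile normalization, rescaling, a constant prior variance, the replicate block, one fit over 5 groups, leaving out each library and, added after the data were seen, averaging the closest pair of libraries in 4 groups. Plots used matplotlib 3.10.9 under Python 3.11.15.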

Additional observations from a re-analysis of the deposited data

How the results depend on the processing

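By adjusted p alone, the members higher and lower were 1 and 0 on OP9 against gelatin, 1 and 36 in D5-LSKCD201+ against D5-LSKCD201-, 1 and 40 against mouse PSCs, 0 and 23 in D5-LSKCD201- against mouse PSCs, 4 and 25 in D5-LSKCD201+ against FL-LSKCD201+, 29 and 8 against BM-LSKCD201+, and 34 and 1 in FL-LSKCD201+ against BM-LSKCD201+, more than with the fold threshold since that threshold removes small differences. After rescaling each library to the same summed FPKM, 5 members were called lower in D5-LSKCD201+ against D5-LSKCD201- (median log2 fold change -0.72) and 2 against FL-LSKCD201+ (median -0.20). Of all genes, 2244 of 15045 and 2821 of 14816 were called lower in these fits, larger shares than those of the members. The medians after rescaling were -0.33 in D5-LSKCD201- against mouse PSCs and 0.83 in D5-LSKCD201+ against BM-LSKCD201+. Quantile normalization gave -0.37 and 0.79 for the last pair. It moved the median of all genes by 0.11 in D5-LSKCD201+ against D5-LSKCD201- and against FL-LSKCD201+ and in FL-LSKCD201+ against BM-LSKCD201+, by -0.15 in D5-LSKCD201- against mouse PSCs and by 0.21 in D5-LSKCD201+ against BM-LSKCD201+, and rescaling moved it by 0.14 and 0.16 in D5-LSKCD201+ against FL-LSKCD201+ and BM-LSKCD201+. In D5-LSKCD201+ against D5-LSKCD201-, quantile normalization called 1716 genes higher and 1599 lower (1475 and 1904 without it), with 7 members lower in place of 9. The counts of genes were 2314 and 2296 in D5-LSKCD201+ against FL-LSKCD201+ (2054 and 2673) and 1211 and 1245 in FL-LSKCD201+ against BM-LSKCD201+ (1050 and 1531). They were 1104 and 741 in D5-LSKCD201- against mouse PSCs (1476 and 473) and 2890 and 3007 in D5-LSKCD201+ against BM-LSKCD201+ (2406 and 3753). Relative to all genes, the members' medians there were -0.75, -0.32, 1.01, -0.27 and 0.81 with it and -0.68, -0.21, 1.07, -0.32 and 0.86 without it, where leaving out 1 library moved the -0.21 to between -0.32 and -0.10. In 1 fit over all 5 sorted-cell groups 0 members were higher in D5-LSKCD201+ against D5-LSKCD201- by adjusted p alone. Averaging the closest pair gave a median of 1.04 in FL-LSKCD201+ against BM-LSKCD201+. Leaving out 1 library at a time gave medians of -0.31 to -0.23 in D5-LSKCD201- against mouse PSCs, -0.44 to -0.27 in D5-LSKCD201+ against FL-LSKCD201+ and 0.91 to 1.02 in FL-LSKCD201+ against BM-LSKCD201+, and 6 to 9 members called lower in D5-LSKCD201+ against D5-LSKCD201-. A count of 6 was near the share of all genes called lower in the same fit. The log2 fold change of Mcm2 on OP9 against gelatin turned to 0.036 with quantile normalization and lay between -0.069 and 0.0082 with 1 library left out, the last without OP9 replicate 2. With the replicate block, FL-LSKCD201+ against BM-LSKCD201+ again gave 19 members called higher, and the other counts of called members were also as without it. By adjusted p alone 0 members were then higher on OP9 and 21 were lower in D5-LSKCD201- against mouse PSCs. In D5-LSKCD201+ against FL-LSKCD201+ 3 were higher and 22 lower, and 33 were higher in FL-LSKCD201+ against BM-LSKCD201+. In every comparison the labels give the libraries only a shared number. Where no cause is given here, the cause was not tested. The unknown depth limits low values the most, and the FPKM of the lowest members, such as Orc1 and Pole2 in bone marrow, cannot be given a counting error.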
